A study of Mus musculus with 14 samples.

Results

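Mouse CD4+ T cells treated with an inhibitor labelled JAK2 (code IFN.3885) were compared with the same cells treated with either of 2 inhibitors labelled JAK3 (codes IFN.6226 and IFN.6228). The comparison uses 6 of the 14 arrays of the series, chosen by these compound codes and targets: 2 arrays of the JAK2 inhibitor and 4 arrays of the JAK3 inhibitors, with 1 array for each compound after 2 h and after 8 h. The CD4+ T cells were taken by negative selection from spleens of male C57BL/6 mice aged 6 weeks and were activated for 48 h with beads against CD3 and CD28. All 6 cultures then received interferon alpha at 100 U/ml together with an inhibitor at IC80, the concentration giving 80% inhibition in an assay that the labels do not name, and RNA was read on Affymetrix Mouse Gene 1.0 ST arrays. The other 8 arrays carry inhibitors whose labels are TYK2, JAK1, JAK1/2 and PAN, given in the same way with interferon alpha. Cells without an inhibitor or without interferon alpha are not analysed here, so each difference is between inhibitors and not from an untreated level. The label JAK2 rests on 1 compound, so an effect of the named target and an effect of that compound cannot be told apart. Nothing in the labels says whether the cultures came from different mice, so the p-values measure the spread between these arrays only. No compound has a repeat array at the same time. Over both times the spread comes from the difference between the 2 JAK3 compounds and from unevenness over time, moderated by the spread of other genes.

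Janus kinases sit in pairs on the tails of cytokine receptors and phosphorylate STAT transcription factors. JAK3 binds the common gamma chain and works with JAK1 in the receptors for IL-2, IL-4, IL-7, IL-9, IL-15 and IL-21. In activated CD4+ T cells the IL-2 receptor acts mainly through STAT5, and the IL-4 receptor through STAT6. JAK2 serves other receptors, among them those for interferon gamma, IL-12 and GM-CSF. The interferon alpha receptor uses JAK1 and TYK2, which none of the 3 inhibitors names.

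Values are log2 of the deposited intensities, and a difference is the JAK2 value minus the mean of the JAK3 values. For the difference over both times, limma was fitted to the 6 arrays with inhibitor class and time, and p-values were adjusted over all 11851 genes tested by the Benjamini-Hochberg method, with a threshold of 0.05. Errors are standard errors (SE) of that fit. Of 11 T cell markers listed, 8 were on the array under their own name, and these were bright enough to test. Cd3e and Cd4 lay between 11.61 and 12.53 on all 6 arrays. In 3 of the 8 (Cd3d, Cd3g and Cd247) the JAK2 array lay below both JAK3 arrays at both times, and in 0 above. Cd3g and Cd247 did not pass over both times (limma, adjusted p = 0.33 and 0.82). Cd3d read 10.27 at 2 h with the JAK2 inhibitor against 10.48 and 10.56, and 10.73 at 8 h against 10.98 and 10.92, lower at each time alone (limma, adjusted p = 0.036 at both) but not over both times (limma, adjusted p = 0.084), where it passed after quantile normalization (limma, adjusted p = 0.033). The JAK2 arrays stood at a different overall scale from the JAK3 arrays, and in opposite ways at the 2 times: the upper quartile of intensity at 2 h was 455 with the JAK2 inhibitor against 479 and 496 with the JAK3 inhibitors, and at 8 h it was 497 against 464 and 464. The median difference of all genes was -0.052 at 2 h, 0.073 at 8 h and 0.018 over both times. Of 58 named genes called over both times, 13 lost the call under quantile normalization, median centring or cyclic loess: Atf3, Ctla2a, Hspe1, Irf4, Irf8, Jaml, Nop56, Pim1, Slc7a1, Snora69, Snord47, Tnfrsf18 and Xbp1. Arrays of a matched time correlated at 0.9948 to 0.9977 across all probe sets.

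Over both times, 76 genes were higher with the JAK2 inhibitor, which is 0.641% of those tested, and 57 were lower, which is 0.481%. The higher genes included the cytokine signalling brakes Cish and Socs2, the cytokines Lif, Il4 and Il2, and the receptor chains Il12rb2, Il4ra and Il2ra. The lower genes included the platelet chemokine gene Ppbp, Mir15b, small nucleolar RNAs and ribosomal protein genes. After quantile normalization the split was 116 higher and 108 lower, and after median centring 53 higher and 95 lower. In 132 of the 133 genes, the JAK2 array lay beyond both JAK3 arrays on the same side at 2 h and at 8 h, the exception being Snord104. Over all genes tested this pattern was common, with 13.0% lying above and 10.9% lying below at both times. Most differences were small, and 12 of the 133 reached 1.5-fold. Before adjustment, 1136 genes had a p under 0.05.

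**Figure D1:**
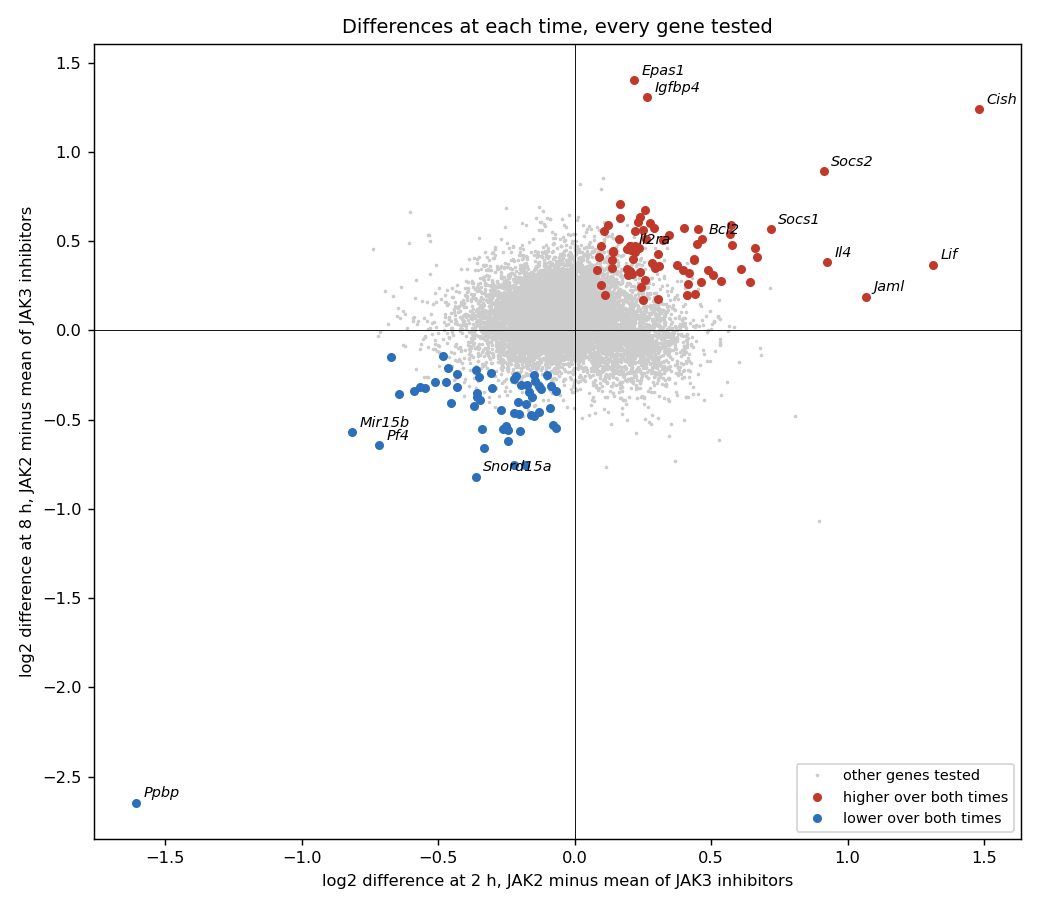
Each point is a gene; the horizontal axis is its log2 difference at 2 h and the vertical axis its log2 difference at 8 h, JAK2 inhibitor minus the mean of the JAK3 inhibitors, from 3 arrays at each time. Red marks the 76 genes higher and blue the 57 genes lower over both times; Cish lies at 1.48 and 1.24, Ppbp at -1.61 and -2.65, and the grey genes form a cloud with no common slope.

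How firmly these genes are called depends on which arrays set the spread. When the error was taken from all 14 arrays, 3 genes passed: Cish, Socs2 and Ppbp. Without the trend of variance on intensity 10 genes passed, and without a term for time 0 did, with 180 genes at an unadjusted p under 0.05 in limma. Leaving out both arrays of IFN.6226 left 17 genes, and leaving out both arrays of IFN.6228 left 29. Without the 2 h array of IFN.3885 the count was 1346, without its 8 h array it was 457, and without the 8 h array of IFN.6226 it was 87.

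The smallest p over both times belonged to Cish, a feedback inhibitor of JAK-STAT signalling. Of 18 members tested in the list of SOCS family genes and other brakes, 4 were higher and 0 lower, beside 0.641% and 0.481% of all genes. The list's median difference was 0.046, beside 0.018 for all genes. The 4 were Cish, Socs2, Socs1 and Socs3, the STAT-induced members that bind receptors or kinases and end the signal. Socs4, Socs5, Socs6 and Socs7, which are less tied to cytokine induction, had differences between -0.09 and 0.16 and none passed. Without the 8 h array of IFN.3885 the list's median was -0.024, and without its 2 h array 0.156.

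Cish, a STAT5 target that acts back on the IL-2 receptor, read 10.61 at 2 h with the JAK2 inhibitor against 9.20 with IFN.6226 and 9.05 with IFN.6228. At 8 h it read 9.01 against 7.71 and 7.82. The JAK2 array was above both JAK3 arrays at each time, and the difference over both times was 1.36 (SE 0.09, 95% interval 1.17 to 1.55, 2.57-fold; limma, adjusted p = 8.6e-10). Socs2, another STAT5 target, read 10.79 at 2 h against 9.88 and 9.86, and 9.40 at 8 h against 8.49 and 8.52. Its difference was 0.90 (SE 0.08, 1.87-fold; limma, adjusted p = 6.7e-08), and it was almost the same at 2 h (0.91) and at 8 h (0.89). Socs1, which blocks JAK1, JAK2 and TYK2 directly, read 10.24 at 2 h against 9.64 and 9.41, and 9.35 at 8 h against 8.78 and 8.80. Socs3, best known downstream of STAT3, read 8.59 at 2 h against 7.98 and 7.87, and 8.28 at 8 h against 7.70 and 7.93. These differences were 0.64 (SE 0.09; limma, adjusted p = 0.00019) for Socs1 and 0.56 (SE 0.10; limma, adjusted p = 0.0035) for Socs3. Both calls were lost with all 14 arrays and without a time term. That of Socs3 was also lost with probe sets averaged, without the variance trend, without IFN.6226 and at a fold of 1.5. Its difference ranged from 0.366 to 0.661 over the alternatives. In all 4 genes the groups did not overlap within a time, which held for 132 of the 133 genes called.

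The other inhibitors give these levels a context. Among the 4 compounds that are labelled neither JAK2 nor JAK3 alone, Cish ranged from 8.98 to 10.14 at 2 h and from 8.07 to 8.26 at 8 h, so that the JAK2 inhibitor had the highest reading of the 7 compounds at both times. The JAK1/2 inhibitor, whose label also names JAK2, read 9.89 and 8.26. Socs2 ranged from 9.76 to 10.42 at 2 h and from 8.40 to 8.80 at 8 h in the same 4 compounds, again below the JAK2 inhibitor.

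**Figure D2:**
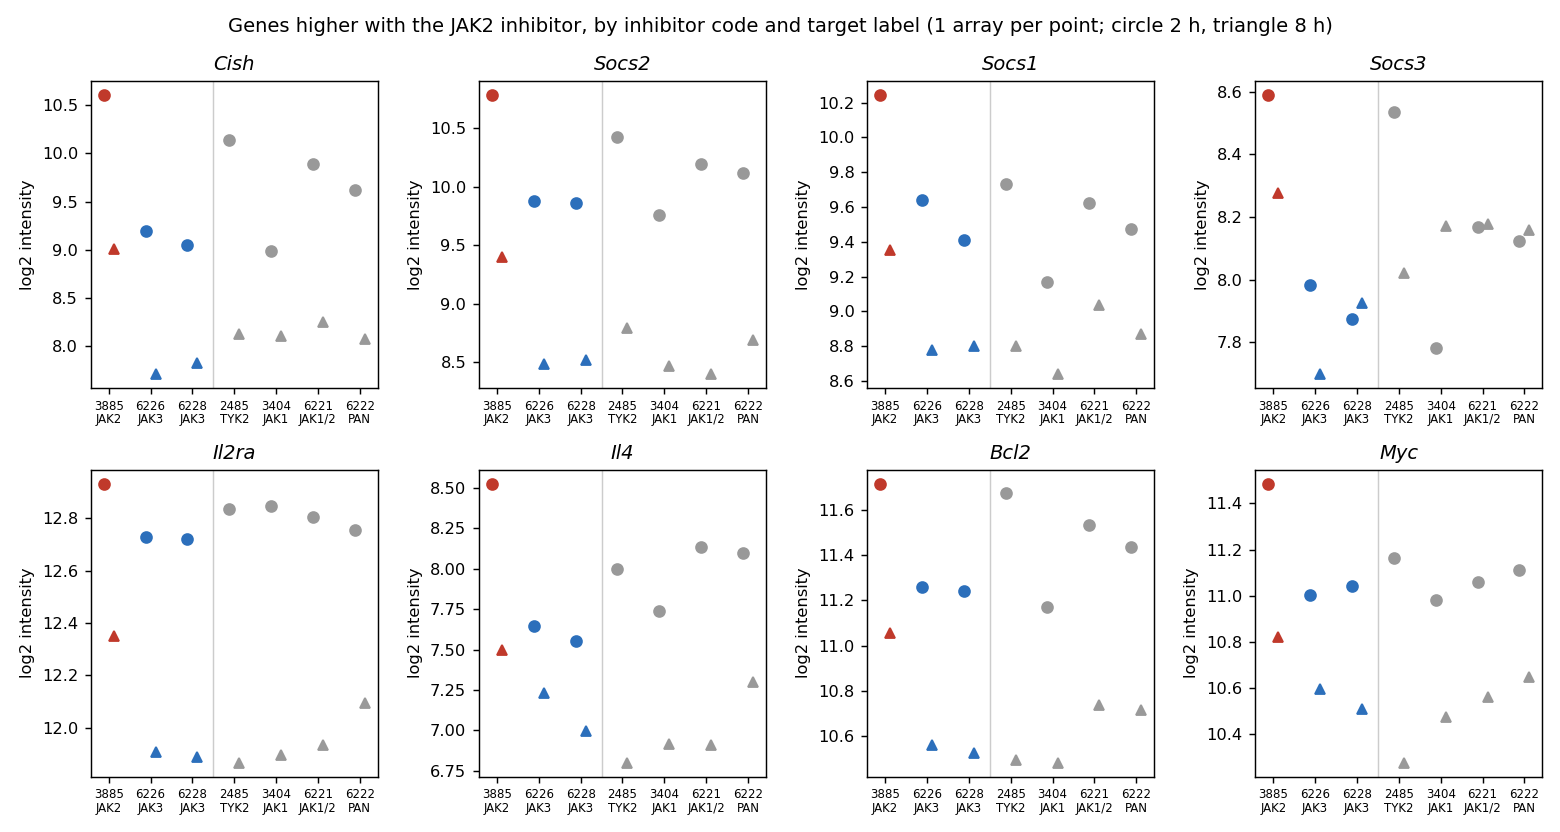
Log2 intensity (vertical axes) of 8 genes that were higher with the JAK2 inhibitor, with 1 panel a gene, 1 array a point, circles at 2 h and triangles at 8 h; red is IFN.3885, blue are IFN.6226 and IFN.6228, and grey are the 4 other compounds. In each panel the red circle and the red triangle lie above both blue ones, as for Il2ra, which reads 12.93 and 12.35 in red against blue values of 12.72 to 12.73 and 11.89 to 11.91.

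Set against each JAK3 inhibitor in turn, with inhibitor and time fitted to all 14 arrays and p-values adjusted over the genes and the 3 pairs together, few genes passed. Cish and Socs2 were higher with IFN.3885 than with IFN.6226 (2 genes, 0.0169% of those tested), and Cish and Socs2 were higher and Ppbp lower with IFN.3885 than with IFN.6228 (3 genes, 0.0253%). Unadjusted p-values under 0.05 numbered 341 and 427 in these pairs. For Cish the difference was 1.35 (95% interval 0.95 to 1.75) against IFN.6226 and 1.37 (0.97 to 1.77) against IFN.6228, each with a limma adjusted p of 0.033. All of these calls were lost after quantile normalization, cyclic loess, averaging of probe sets, an offset of 50 or removal of the variance trend, and leaving out 1 array of a pair left 0 or 1 gene. Ppbp missed the threshold against IFN.6226, with a difference of -1.94 (95% interval -2.61 to -1.27; limma, adjusted p = 0.14). Between the JAK3 inhibitors 0 genes passed (0.00%), with 42 genes at an unadjusted p under 0.05 in limma, and the smallest p belonged to Syne2, at 0.35 higher with IFN.6228 than with IFN.6226. For Cish the JAK3 inhibitors differed by -0.02 with an interval of -0.42 to 0.38, and for Socs2 by 0.01 with an interval of -0.25 to 0.27, so differences of these sizes in either direction are not shut out. The first 2 pairs share the arrays of IFN.3885.

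Genes that IL-2 and STAT5 are known to induce were higher as a group. Of 44 tested, 19 were higher and 0 lower, beside 0.641% and 0.481% of all genes. The list's median difference was 0.264, 40 members had a positive difference, and in 31 the JAK2 array lay above both JAK3 arrays at both times. Of all genes tested, 56.92% had a positive difference and 13.0% lay above in this way. This list was drawn up with earlier results of these arrays known, and it shares Cish, Socs1, Socs2 and Socs3 with the list of brakes. Its median stayed between 0.201 and 0.297 under every alternative tried. The count of members called was 0 without a time term, 2 with all 14 arrays, 5 without the variance trend and 20 after quantile normalization.

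Within that list the cytokine genes were Lif and Osm, relatives of IL-6. Lif read 8.85 at 2 h with the JAK2 inhibitor against 7.48 and 7.58, and 6.65 at 8 h against 6.43 and 6.15, a difference over both times of 0.84 (SE 0.14, 1.79-fold; limma, adjusted p = 0.0023). Osm read 8.90 at 2 h against 8.51 and 8.39, and 8.94 at 8 h against 8.45 and 8.28, a difference of 0.51 (SE 0.09; limma, adjusted p = 0.0037). Lif was high mainly at 2 h, whereas the Osm readings differed by a similar amount at both times. The Lif readings at 8 h lay near log2 6.27, the cut for dim genes.

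Survival and growth genes of the list moved in the same direction. Bcl2, which protects T cells from death, read 11.71 at 2 h against 11.26 and 11.24, and 11.05 at 8 h against 10.56 and 10.53. Its difference was 0.49 (SE 0.06; limma, adjusted p = 2.9e-05). Myc, the growth regulator, read 11.49 at 2 h against 11.00 and 11.04, and 10.82 at 8 h against 10.60 and 10.51, a difference of 0.37. Pim1, a kinase that supports survival, differed by 0.31, and Cdk6, a cell cycle kinase, by 0.41. The call of Pim1 was lost under all 3 rescalings, with an adjusted p of 0.054 in limma after quantile normalization. In Bcl2 and in Myc the groups did not overlap within a time, which held for nearly all genes called over both times. Of the other BCL2 family genes, 0 of 14 passed, with Bcl2l1 at 0.14, Mcl1 at -0.09 and the death gene Pmaip1 at -0.17.

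Gzmb, the granzyme B gene, and Stat5a did not pass. Gzmb read 9.56 at 2 h against 9.41 and 9.50, and 9.34 at 8 h against 8.72 and 8.75, with a difference over both times of 0.36 (95% interval 0.16 to 0.56; limma, adjusted p = 0.076). After quantile normalization Gzmb passed (0.35; limma, adjusted p = 0.033), as it did after cyclic loess. Stat5a differed by 0.20 (95% interval 0.05 to 0.34; limma, adjusted p = 0.25). Among 9 JAK and STAT genes tested, 0 passed: Jak1 differed by -0.04, Jak2 by -0.02, Tyk2 by 0.04, Stat3 by 0.08, Stat5b by -0.01 and Stat6 by -0.01. Jak3 and Il2rg had no probe set that names them alone and are not given.

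The common gamma chain cytokines and their receptor chains, the part of the system that JAK3 serves, were higher in 5 of 9 members tested and lower in 0, with a median of 0.262. Of all genes, 0.641% were higher and 0.481% lower. The lists share members: Il4 and Il4ra also count in the STAT6 and Th2 list, and Il2ra in the Treg list. Among the 5 higher members the cytokines were Il4 and Il2. Il4 read 8.53 at 2 h with the JAK2 inhibitor against 7.65 and 7.56, and 7.496 at 8 h against 7.229 and 6.998, a difference of 0.65 (SE 0.12, 1.57-fold; limma, adjusted p = 0.0032). Il2 read 9.84 at 2 h against 9.28 and 9.27, and 7.29 at 8 h against 6.69 and 6.80, a difference of 0.56 (SE 0.09; limma, adjusted p = 0.0023). The JAK2 arrays were above both JAK3 arrays for each gene and time, a pattern that nearly all genes called higher shared. The Il2 reading was not highest among all compounds: the JAK1 inhibitor read 10.004 and the JAK1/2 inhibitor 9.88 at 2 h.

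The receptor chains were Il4ra, Il2ra and Il2rb. Il2ra, the chain that raises the affinity for IL-2, read 12.93 at 2 h against 12.73 and 12.72, and 12.35 at 8 h against 11.91 and 11.89, a difference of 0.33 (SE 0.05; limma, adjusted p = 0.00085). Il2rb, the signalling chain shared by IL-2 and IL-15, read 12.48 against 12.29 and 12.25 at 2 h, and 12.61 against 12.32 and 12.27 at 8 h, a difference of 0.26. Il4ra differed by 0.41 (SE 0.07; limma, adjusted p = 0.0015). Il7r, the IL-7 receptor chain, had a difference of -0.11 (limma, adjusted p = 0.59), and Il21r, Il15ra and Il9r did not pass either.

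Receptors that use JAK2 itself showed 1 gene of 11 higher and 0 lower, beside 0.641% and 0.481% of all genes, with a median of 0.097. That gene was Il12rb2, the inducible chain of the IL-12 receptor, which read 10.56 at 2 h against 9.92 and 9.85, and 9.02 at 8 h against 8.63 and 8.60. Its difference was 0.54 (SE 0.08; limma, adjusted p = 0.0010). The interferon gamma receptor chains Ifngr1 and Ifngr2 differed by -0.08 and 0.11 and did not pass.

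Genes of the T helper lineages were mixed. In the STAT6 and Th2 list 5 of 13 were higher and 0 lower, beside 0.641% and 0.481% of all genes, with a median of 0.255. The 5 were Il4, Il4ra, the circadian and Th2 regulator Nfil3 (0.58), the chemokine receptor Ccr4 (0.42) and the transcription factor Irf4 (0.32). Il4 and Il4ra are also counted in the common gamma chain list. Gata3, the lineage factor of Th2 cells, differed by 0.25 without passing. In the Th1 and STAT4 list 3 of 16 were higher and 1 lower: Il12rb2, Runx3 (0.47) and Eomes (0.47) were higher, and Ccl5, a chemokine gene, was lower. Tbx21, which encodes T-bet, differed by 0.26 and Ifng by 0.16, and neither passed.

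In the Treg list 5 of 17 were higher and 0 lower, beside 0.641% and 0.481% of all genes. They were Gpr83, Foxp3, Ikzf4, Il2ra and Tnfrsf18, and Il2ra is also counted in the common gamma chain list. Gpr83, a receptor abundant in regulatory T cells, read 8.84 at 2 h against 8.24 and 8.29, and 8.64 at 8 h against 8.17 and 8.15, a difference of 0.53 (SE 0.09; limma, adjusted p = 0.0026). Foxp3, the lineage factor of these cells, read 8.72 at 2 h against 8.39 and 8.36, and 9.11 at 8 h against 8.52 and 8.63, a difference of 0.44 (SE 0.09; limma, adjusted p = 0.013). Ctla4, Ikzf2 and Tigit differed by 0.01, -0.14 and 0.07 and did not pass. In these bulk cultures a change in the share of cells of a type and a change in RNA per cell cannot be told apart. In the Tfh list 0 of 13 passed in either direction, with Bcl6 at -0.36 (95% interval -0.60 to -0.12; limma, adjusted p = 0.19), which passed after median centring.

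MYC targets and genes of ribosome biogenesis were higher in 4 of 27 and lower in 0, beside 0.641% and 0.481% of all genes, with a median of 0.161. They were Myc, Polr1b (0.44), a subunit of RNA polymerase I, the spermidine synthase gene Srm (0.41) and the nucleolar protein gene Nop56 (0.29). The JAK2 array was above both JAK3 arrays at both times in 17 of the 27, beside 13.0% of all genes tested.

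**Figure D3:**
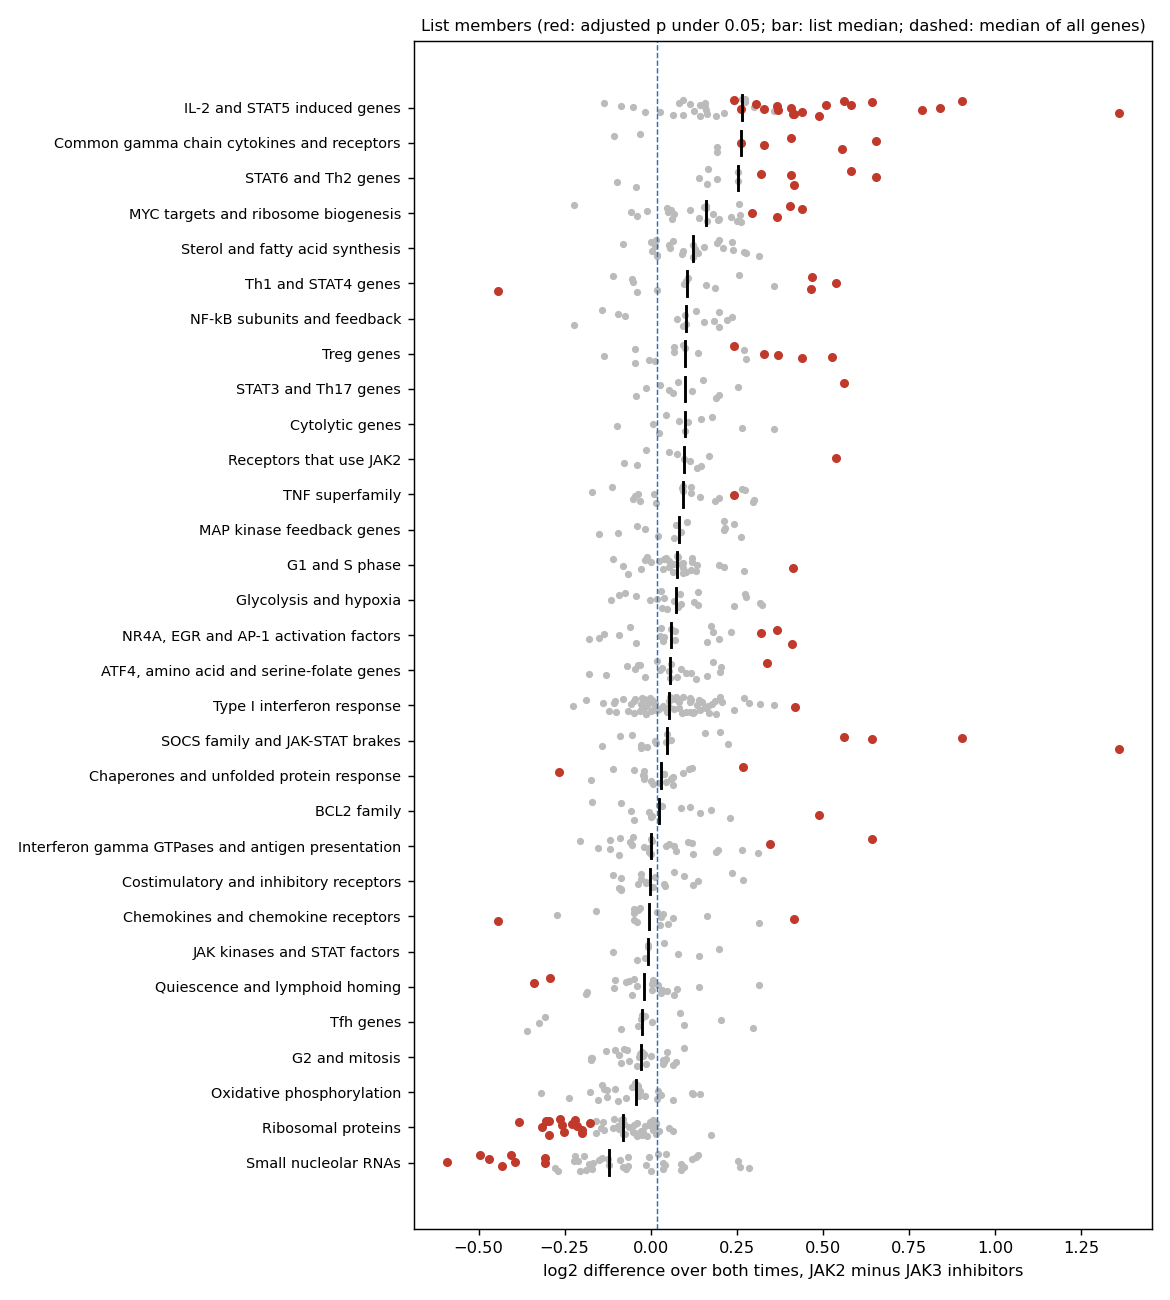
Each point is a gene of a list and the horizontal axis is its log2 difference over both times, JAK2 minus JAK3 inhibitors; red points passed the adjusted p threshold of 0.05, the black bar is the list's median and the dashed line the median of all genes (0.018). The bars of the IL-2 and STAT5 list (0.264) and the common gamma chain list (0.262) lie farthest to the right, and those of ribosomal proteins (-0.079) and small nucleolar RNAs (-0.121) farthest to the left.

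The interferon alpha response was examined through a list of its known genes. Of 73 type I interferon response genes tested, 1 was higher over both times and 0 were lower, beside 0.641% and 0.481% of all genes. The median was 0.052. The gene that passed was Mov10, an RNA helicase gene, at 0.42 (SE 0.06; limma, adjusted p = 0.0010). After quantile normalization 4 of the 73 were higher and 0 lower, with a median of 0.028. Rsad2, which encodes viperin, read 9.08 at 2 h with the JAK2 inhibitor against 8.90 and 9.06, and 9.60 at 8 h against 9.45 and 9.50, a difference of 0.12 with a 95% interval of -0.06 to 0.29. Irf7 differed by 0.02 (interval -0.12 to 0.17), Mx1 by 0.17 (interval -0.04 to 0.38) and Ifit1 by 0.14 (interval 0.0039 to 0.28), and none of them passed. Ifi27l2a, an interferon-induced gene outside the list that was picked after its values were seen, was lower: it read 10.69 at 2 h against 10.88 and 10.94, and 11.81 at 8 h against 12.06 and 12.07, a difference of -0.24 (SE 0.05; limma, adjusted p = 0.027). Rsad2 readings under the 4 compounds that name JAK1, TYK2 or all JAKs were 6.54 to 7.33 at 2 h and 6.81 to 9.20 at 8 h. Of 28 interferon gamma and antigen presentation genes, 2 were higher, Irf8 (0.35) and Socs1, and 0 lower, with a median of 0.002 that fell below 0 after quantile normalization and median centring.

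Of the 73 genes, 6 were higher and 0 lower at 2 h, beside 0.928% and 3.08% of all genes. At 8 h 7 were higher and 1 lower, close to the 10.01% and 1.41% of all genes. In 3 (Ifit3, Isg20 and Rnf213) the difference fell between the times, beside 1.12% of all genes. Ifit3 read 9.51 at 2 h against 8.91 and 9.04, a difference of 0.53 (limma, adjusted p = 0.0025), and 10.006 at 8 h against 10.112 and 9.999, a difference of -0.05. The change between the times was -0.58 (SE 0.11; limma, adjusted p = 0.013), and it was -0.74 after quantile normalization. Over both times Ifit3 differed by 0.24 and did not pass (limma, adjusted p = 0.38).

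Some of the higher genes carry a STAT5 site near their start. The site searched was TTCNNNGAA, which reads the same on both strands, in RefSeq windows (GRCm38.p6) from 250 bases before to 50 bases after each annotated start. Of the 76 higher genes 64 had a window and 14 of these held the site, or 21.88%; of the 57 lower genes 32 had a window and 3 held it, or 9.38%. Among all 9497 genes tested that had a window, 776 held it, or 8.17%. In the type I interferon list, of which 1 member was higher, 20.69% held it. The interferon element, GAAA, any 2 bases and GAAA again, was in 7.81% of the higher genes, 9.38% of the lower genes and 3.57% of all genes tested, and in 46.55% of the type I interferon list. These are matches of letters and not sites shown to be bound. Of the 14 higher genes that held the site, 6 from the cytokine, brake, T helper and Treg lists are printed to show it in its surroundings. The other genes that held it were Ahcyl2, Irf8, Lyst, Polr1b, Pros1, Rasgrp1, Slc7a1 and Trp53i11. Sequences are in lower case 5' to 3' on the strand of the gene with the match in capitals. The window of Cish holds 2 matches that begin at the annotated start.
Cish, chr9:107296654-107296683, plus strand: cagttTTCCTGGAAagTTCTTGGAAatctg
Il4, chr11:53617329-53617347, minus strand: ctgttTTCATGGAAacaca
Socs3, chr11:117969497-117969535, minus strand: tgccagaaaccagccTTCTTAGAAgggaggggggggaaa
Il12rb2, chr6:67376288-67376326, minus strand: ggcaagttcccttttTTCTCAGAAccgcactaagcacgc
Foxp3, chrX:7580329-7580367, plus strand: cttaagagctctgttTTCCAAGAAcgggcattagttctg
Tnfrsf18, chr4:156026208-156026246, plus strand: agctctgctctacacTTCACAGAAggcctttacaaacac

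Ppbp gave the largest difference of all genes tested over both times. It encodes pro-platelet basic protein, a chemokine of platelets, and read 6.22 at 2 h with the JAK2 inhibitor against 7.78 and 7.88, and 6.45 at 8 h against 8.77 and 9.42. The difference was -2.13 (SE 0.16, 95% interval -2.46 to -1.79, 4.37-fold; limma, adjusted p = 8.2e-09). Both JAK2 readings lay near log2 6.27, the cut for dim genes, and how far this limits the size of the difference was not tested. Pf4, platelet factor 4, read 6.48 at 2 h against 7.24 and 7.15, and 6.77 at 8 h against 7.39 and 7.44, a difference of -0.68 (SE 0.10; limma, adjusted p = 0.00092). The groups did not overlap in either gene, though within a time this held for nearly all genes called.

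Both genes mark platelets and their precursors, which are not T cells. Of 8 platelet and erythroid markers 5 were on the array under their own name and 4 were bright enough to test, with 2 lower (Ppbp and Pf4) and 0 higher. Itga2b read 7.03 to 7.20 with the JAK2 inhibitor and 7.22 to 7.54 with the JAK3 inhibitors, and Gp9 read 6.91 to 6.94 and 6.84 to 7.10. Klf1, too dim to test, went the other way, at 6.01 on both JAK2 arrays and 5.78 to 5.87 with the JAK3 inhibitors. The summed level of the list was 8.95 to 9.01 with the JAK2 inhibitor and 9.44 to 10.27 with the JAK3 inhibitors, without overlap. Ppbp was the brightest gene of this sum on each JAK3 array, so the sum largely repeats the difference in Ppbp. Over the 2 times together, the summed levels of the NK cell, macrophage, dendritic cell, granulocyte, plasma cell, B cell and CD8 T cell markers overlapped between the groups. Within each time the B cell sum with the JAK2 inhibitor was above both JAK3 arrays, at 10.770 against 10.677 and 10.755 at 2 h and 11.236 against 11.231 and 11.088 at 8 h. The CD8 T cell sum was too, at 9.617 against 9.518 and 9.550 and at 9.978 against 9.841 and 9.808. The macrophage and monocyte sum was below both JAK3 arrays at each time. It read 10.373 against 10.384 and 10.401 at 2 h and 10.482 against 10.600 and 10.498 at 8 h. Eomes, in the list of CD8 T cell markers, is the marker gene outside the platelet list that passed, while Cd8a and Cd8b1 did not. The part of platelet RNA in these differences was not tested. Under the 4 other compounds Ppbp ranged from 6.66 to 8.35.

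**Figure D4:**
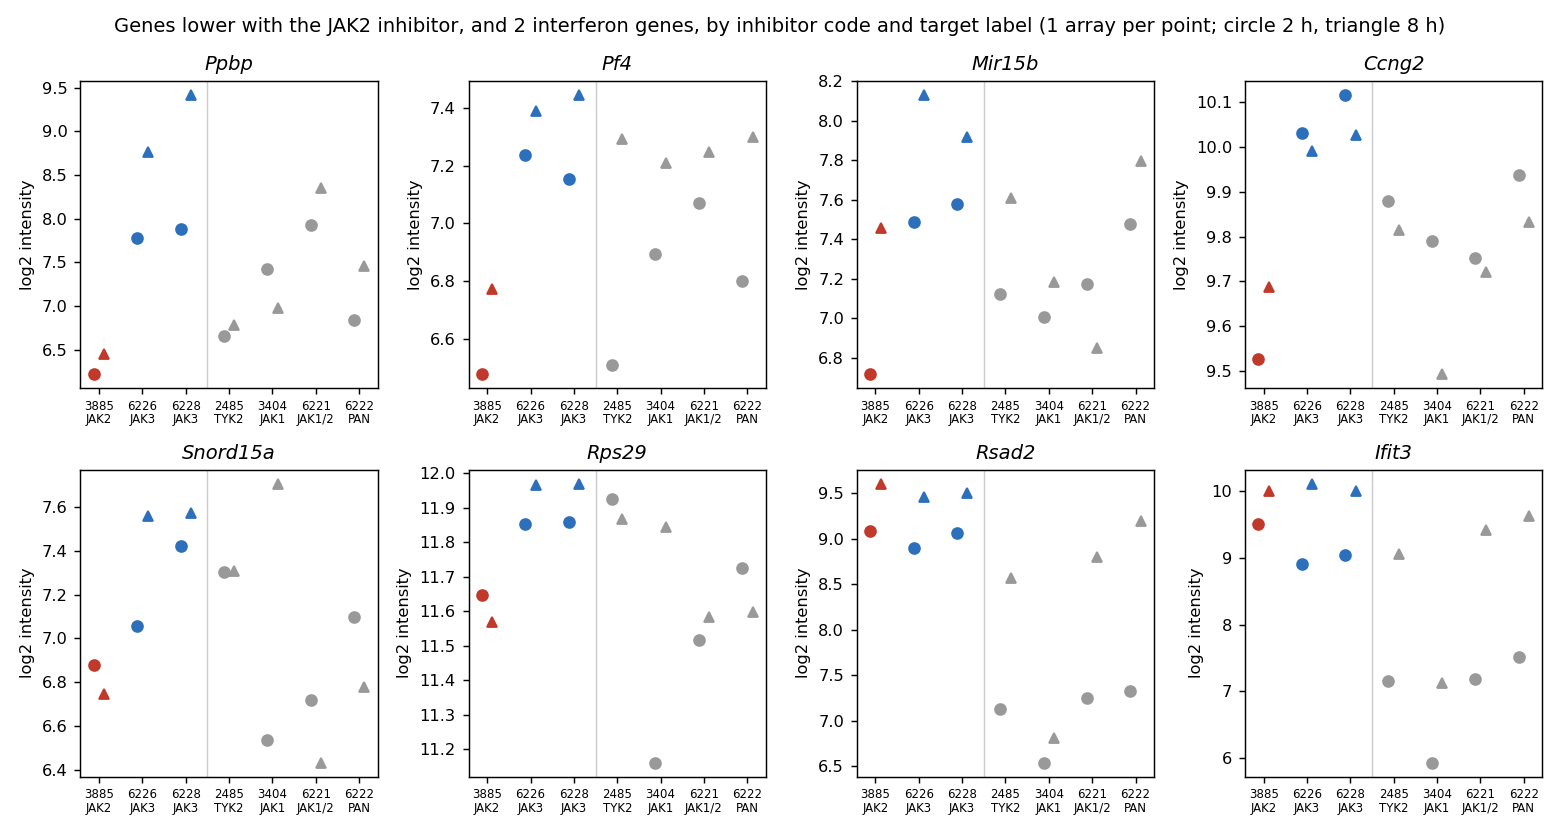
Log2 intensity (vertical axes) of 6 genes that were lower with the JAK2 inhibitor and of the interferon genes Rsad2 and Ifit3, drawn as 1 panel a gene and 1 array a point, circles at 2 h and triangles at 8 h; red is IFN.3885, blue are IFN.6226 and IFN.6228, and grey are the 4 other compounds. Ppbp reads 6.22 and 6.45 in red against 7.78 to 9.42 in blue, and in Rsad2 and Ifit3 the red and blue points at 8 h lie together above the grey ones.

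The miRNA loci Mir15b and Mir15a were lower. Mir15b read 6.72 at 2 h with the JAK2 inhibitor against 7.49 and 7.58, and 7.46 at 8 h against 8.13 and 7.92, a difference of -0.69 (SE 0.11, 1.62-fold; limma, adjusted p = 0.0010). Mir15a read 8.74 at 2 h against 9.08 and 9.43, and 9.11 at 8 h against 9.39 and 9.42, a difference of -0.40 (limma, adjusted p = 0.034). Mir16-1 was named after its values were seen, as was Mir15a, and did not pass (-0.17). These probe sets read RNA of the locus and do not measure the mature miRNA. Mir15b lies within Smc4, which differed by -0.18 over both times (limma, adjusted p = 0.069) and was lower at 2 h (limma, adjusted p = 0.042) and at 8 h (limma, adjusted p = 0.031) alone, and Mir15a within the noncoding gene Dleu2. The mature 5' arms are printed because the 2 loci encode the same seed, bases 2 to 8, shown in capitals (RefSeq, GRCm38.p6).
mmu-miR-15b-5p, chr3:69009775-69009796, plus strand: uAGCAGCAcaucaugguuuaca
mmu-miR-15a-5p, chr14:61632075-61632096, minus strand: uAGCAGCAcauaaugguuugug

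Ribosomal protein genes and small nucleolar RNAs, which guide modification of ribosomal RNA, were 2 lists added after their values were seen. Of 53 ribosomal protein genes tested 14 were lower and 0 higher, beside 0.481% and 0.641% of all genes, with a median of -0.079. The lower calls lay mainly at 8 h. At 2 h alone 2 were lower, beside 3.08% of all genes. At 8 h alone 23 were lower and 1 higher, beside 1.41% and 10.01%. Rps29, 1 of the 2 lower at 2 h, read 11.65 at 2 h against 11.85 and 11.86, and 11.57 at 8 h against 11.97 and 11.97. Its difference over both times was -0.30 (SE 0.05; limma, adjusted p = 0.0025). The largest were Rps21 (-0.38) and Rpl7 (-0.32), also picked after their values were seen. The count was 11 after quantile normalization, 6 after cyclic loess and 18 after median centring, with the median below 0 in each. Of 45 small nucleolar RNAs 8 were lower and 0 higher, with a median of -0.121. At 2 h alone 0 were called in either direction, and at 8 h alone 11 were lower and 3 higher. Snord15a read 6.88 at 2 h against 7.06 and 7.42, and 6.75 at 8 h against 7.56 and 7.57, a difference of -0.59 (SE 0.12; limma, adjusted p = 0.011). After quantile normalization 3 were lower and 1 higher. Many ribosomal protein genes have near-identical pseudogenes that a probe set can share.

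Lower genes outside these groups included Ccng2, Mxd4, Klhl24 and Tcp11l2. Ccng2, a cyclin of cells leaving the cycle, read 9.53 at 2 h against 10.03 and 10.12, and 9.69 at 8 h against 9.99 and 10.03, a difference of -0.43 (SE 0.08; limma, adjusted p = 0.0028). Mxd4, which opposes MYC, differed by -0.43, Klhl24 by -0.41 and Tcp11l2 by -0.50. In the quiescence and homing list 2 of 22 were lower and 0 higher, beside 0.481% and 0.641% of all genes. They were Pik3ip1 (-0.34), a brake on PI3 kinase, and Txnip (-0.29), a brake on glucose uptake. Klf2, Ccr7 and S1pr1 differed by 0.14, 0.03 and -0.06 and did not pass. Ccl5 read 9.17 at 2 h against 9.49 and 9.52, and 9.90 at 8 h against 10.51 and 10.40, a difference of -0.44 (SE 0.08; limma, adjusted p = 0.0026).

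At 2 h alone, 110 genes were higher (0.928%) and 365 lower (3.08%), from 1 JAK2 array and 2 JAK3 arrays. At 8 h alone, 1186 were higher (10.01%) and 167 lower (1.41%). In these fits the single JAK2 array of a time is assumed to vary like the JAK3 arrays. The counts moved with the scaling of the arrays: after quantile normalization, which balances the arrays by construction, they were 226 and 228 at 2 h and 343 and 340 at 8 h, and after median centring 91 and 958 at 2 h and 664 and 149 at 8 h. The counts also moved with single JAK3 arrays: 475 genes were called at 2 h in all and 2502 without the 2 h array of IFN.6226, and 1353 were called at 8 h in all but 2706 and 2711 without the 2 h arrays of IFN.6226 and IFN.6228, and 562 and 727 without their 8 h arrays. Of the genes higher at 2 h, 42 were also higher at 8 h, which is 38.18% of the first set and 3.54% of the second. Of those lower at 2 h, 28 were also lower at 8 h, and 2 genes were higher at 2 h and lower at 8 h, and 20 the reverse. Across all genes the differences at 2 h and at 8 h had a Pearson r of -0.050, a description over genes that are not independent.

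The largest differences at 2 h were those of Cish (1.48), Lif (1.31), Jaml (1.07), Il4 (0.93) and Socs2 (0.91) among the higher genes. Jaml, an adhesion molecule gene, read 7.90 against 6.90 and 6.77 at 2 h, and 6.84 against 6.56 and 6.74 at 8 h. Among the lower genes they were Ppbp, Mir15b, 1810034E14Rik, Rasgef1a and Pf4. At 8 h the largest were Epas1 (1.40), Igfbp4 (1.31), Cish (1.24), Socs2 (0.89) and Neb (0.85), and the lower ones were Ppbp, Srsy, Snord15a, Psg20 and Snord47.

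Epas1 and Igfbp4 differed mainly at 8 h. Epas1, which encodes the hypoxia factor HIF-2 alpha, read 9.46 at 2 h against 9.32 and 9.16, and 8.93 at 8 h against 7.54 and 7.52. Igfbp4, an IGF-binding protein, read 10.56 at 2 h against 10.32 and 10.27, and 10.58 at 8 h against 9.34 and 9.20. The JAK3 readings of both genes were lower at 8 h than at 2 h, while that of Igfbp4 with the JAK2 inhibitor was not. The change in the difference was 1.18 (SE 0.13; limma, adjusted p = 0.00044) for Epas1 and 1.04 (SE 0.10; limma, adjusted p = 0.00028) for Igfbp4, and it was 1.00 and 0.90 after quantile normalization. Without the 8 h array of IFN.3885 the fit holds that inhibitor at 2 h alone, where the differences were 0.22 for Epas1 and 0.27 for Igfbp4.

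In all, the difference changed with time in 941 genes upward (7.94%) and 133 downward (1.12%), beside a median change of all genes of 0.143. Quantile normalization brought that median close to 0 and gave 90 and 143 genes, of which 174 were among the original 1074. The 1074 calls were 3778 and 1997 without the 2 h arrays of IFN.6226 and IFN.6228, and 472 and 508 without their 8 h arrays. Of the lists, that of sterol and fatty acid synthesis genes held the most such changes: 14 of 25 changed upward, 0 downward, with a median change of 0.366. At 8 h 13 of the 25 were higher and at 2 h 0 were called in either direction. Cyp51, an enzyme of cholesterol synthesis, read 9.75 at 2 h against 9.73 and 9.81, and 8.52 at 8 h against 7.81 and 7.93, and Hmgcs1 differed by -0.11 at 2 h and 0.59 at 8 h. After quantile normalization 9 of the 25 were higher at 8 h and 4 changed with time, with a median change of 0.187. Over both times 0 of the 25 passed, with Cyp51 at 0.31.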

How the data were processed

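The 14 Affymetrix arrays were made from total RNA, and per the submitters' processing notes the authors used Affymetrix Power Tools and RMA. The deposited values are intensities on a linear scale; which arrays were normalized together is not given in the sources used here. Precision is limited by how few arrays there are. Of 24922 probe sets, 21425 name 1 gene symbol (19752 symbols), 1399 several and 2098 none; probe sets without 1 symbol were left out. Each gene was read from its brightest probe set over all 14 arrays, and genes under the 40th percentile (log2 6.27) were left out, which left 11851.

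Differences were fitted on log2 values with limma 3.58.1 in R 4.3.3 (lmFit, and eBayes with a trend), with inhibitor class and time on 6 arrays (3 residual degrees of freedom), with the class by time means for each time and for the change between them (2), and with inhibitor and time on 14 arrays for the 3 pairs of compounds (6). P-values were adjusted by Benjamini-Hochberg over all genes, and over genes and pairs together for the pairs. The fits were tested on simulated data with 200 changed genes. A JAK2 reading beyond both JAK3 readings on the same side at 2 h and at 8 h was counted separately, without a test.

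Genes named are the 15 largest differences in each direction over both times among those that pass and lie beyond both JAK3 arrays at both times, up to 5 a direction in the other comparisons or the 3 smallest p if none passes, in each list the 4 members of largest moderated t, and some genes always named (the JAK, STAT, SOCS, IL-2 and IL-4 genes and some interferon genes). The compounds compared, the gene lists and these rules were chosen with earlier results of these data known; the lists of ribosomal proteins and small nucleolar RNAs, and genes said to be picked afterwards, were added after their values were seen. List members that a passage gives outside this rule serve to describe the list. Lists are described by counts and medians, with no test of the list. Some genes are in several lists, so the counts of these lists are not separate results. Promoter windows and miRNA sequences are from RefSeq (GRCm38.p6), matched by symbol. Alternatives were quantile, loess and median scaling, other filters and probe set rules, an offset of 50, no trend or robust moderation, a fold of 1.5, other designs, and leaving out each array and each JAK3 compound.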

Additional observations from a re-analysis of the deposited data

Results flagged for a closer look

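In 46 of the named genes the difference between the JAK2 inhibitor and the JAK3 inhibitors was itself different at 8 h from that at 2 h (limma, adjusted p under 0.05). Each value below is the difference at 8 h minus the difference at 2 h on the log2 scale, where the median of all genes was 0.143. After quantile normalization 24 of the 46 still passed and all 46 kept their sign. Which of these shifts belong to the scale of the arrays was not tested beyond that.

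Immune genes whose difference was larger at 2 h were Lif (-0.95), Jaml (-0.88), Ifng (-0.67), Ifit3 (-0.58) and Il4 (-0.54). The Lif readings at 8 h lay near the cut for dim genes. Ifng had a difference of 0.49 at 2 h and -0.17 at 8 h, with an adjusted p of 0.059 for the change after quantile normalization. Il4 had the weakest support of this group, with a limma adjusted p of 0.049.

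Immune and cell death genes with an upward change were Bcl6 (0.71), Ccl22 (0.61), Ccr9 (0.61), Gzmb (0.50), Runx3 (0.42), Tyk2 (0.41), Bcl3 (0.37), Bak1 (0.36), Il2ra (0.24) and Cd3e (0.23). Bcl6, a repressor that STAT5 is known to oppose, had a difference of -0.71 at 2 h and -0.01 at 8 h. None of these 10 changes passed after quantile normalization.

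Metabolic and growth genes with an upward change were Epas1 (1.18), Igfbp4 (1.04), Cyp51 (0.67), Fads2 (0.63), Egln3 (0.62), E2f1 (0.53), Shmt2 (0.48), Spred2 (0.46), Pgam1 (0.44), Srebf2 (0.37), Slc7a5 (0.36), Fasn (0.35), Srm (0.31) and Nop56 (0.30). Of these, Epas1, Igfbp4, Cyp51, Fads2, Egln3 and Shmt2 also passed after quantile normalization, at 1.00, 0.90, 0.49, 0.47, 0.45 and 0.38.

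Upward changes were also seen in 1810034E14Rik (1.19), Gpr21 (1.09), Ly6i (1.07), Zfp799 (1.07), Neb (0.75), Rasgef1a (0.69), Klhl24 (0.52), Dnajb9 (0.49) and Cenpe (0.32). Downward changes were seen in Srsy (-1.96), Prp2 (-1.29), Mir680-2 (-1.15), Pate11 (-1.10), Ppbp (-1.04), Psg20 (-0.88), Snord47 (-0.58) and Ctla2a (-0.53). Srsy read 7.75 at 8 h with IFN.6226 and 6.46 with IFN.6228, so the JAK3 inhibitors themselves differed there. For Ppbp the JAK2 readings lay near the cut for dim genes at both times (6.22 and 6.45), while the JAK3 readings rose between the times.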

How the results depend on the processing

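For the difference over both times, the 133 genes became 224 after quantile normalization, 202 after cyclic loess, 67 without a filter on dim genes, 12 at a fold of at least 1.5, 10 without the variance trend, 3 with all 14 arrays, 0 without a time term, 17 without IFN.6226 and 29 without IFN.6228. Leaving out 1 array at a time gave 87 to 1346 genes. Under quantile normalization 109 of the 133 genes were called again, and under median centring 103. The other alternatives for this count stayed within 1.5 times of it. Cish and Socs2 lost their call under no alternative but the fit without a time term, and Ppbp lost its call there and under robust moderation.

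At 2 h, 475 genes became 1049 after median centring, 270 without a filter, 4 without the variance trend and 39 at a fold of at least 1.5, and 457 to 2502 with 1 array left out. At 8 h, 1353 genes became 683 after quantile normalization, 813 after median centring, 742 after cyclic loess, 27 without the variance trend and 46 at a fold of at least 1.5, and 562 to 2711 with 1 array left out. For the change between the times, 1074 genes became 233 after quantile normalization, 183 after cyclic loess, 452 without a filter, 0 without the variance trend (limma; the adjusted p is the limit) and 246 at a fold of at least 1.5, and 472 to 3778 with 1 array left out. Where a JAK3 array was left out, the arm had 1 array left, assumed to vary like the rest.

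For IFN.3885 against IFN.6226, the 2 genes became 0 after quantile normalization, cyclic loess, averaging probe sets, an offset of 50 and no variance trend, and 72 with the 6 arrays only; against IFN.6228, the 3 genes became 0 under the same settings and 77 with the 6 arrays only. With 1 of their own arrays left out these pairs gave 0 to 1 genes, and without the 8 h array of the JAK1 inhibitor 3 and 4. For IFN.6228 against IFN.6226, 0 genes became 6 with the 6 arrays only and stayed at 0 in the other settings, leave-outs included.

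Without the 2 h array of IFN.3885, 1810034E14Rik, Gpr21, Ly6i and Zfp799 reversed to 0.45, 0.49, 0.53 and 0.53 (without its 8 h array they were -0.74, -0.61, -0.54 and -0.53), and the median of the oxidative phosphorylation list to 0.012 (against -0.093). Without its 8 h array the medians of the SOCS, G1 and S phase and glycolysis lists reversed to -0.024, -0.035 and -0.0083 (without its 2 h array they were 0.156, 0.175 and 0.180). These settings keep 1 time of the JAK2 inhibitor, and the cause was not tested further. No paired analysis was possible because each compound and time has 1 array and every array carries the same replicate number. In simulation, changes of 0.5 were recovered in 62.7% of cases over both times and in 6.0% at 2 h. They were recovered in 19.4% at 8 h and in 0.0% for the change between times. The simulated noise came from the fit of class and time, whose residual also holds changes of the difference with time. The fits for each time leave those out of their error, so these shares do not give what those fits detect. In the data, a change as small as that of Cd3e (0.23) was called.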

Other observations

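The lists below held 0 to 3 calls each over both times, where 0.641% of all genes were higher and 0.481% lower. In the list of NR4A, EGR and AP-1 factors 3 of 21 were higher, or 14.3%, and 0 lower (Atf3, Myc and Irf4), with a median of 0.059. In the TNF superfamily 1 of 21 was higher (Tnfrsf18, at 0.24), and Cd40lg, Lta, Tnfrsf8 and Tnfrsf9 had differences of 0.27 to 0.30 that did not pass. Of the chemokine and receptor genes 1 of 18 was higher (Ccr4) and 1 lower (Ccl5), and of the STAT3 and Th17 genes 1 of 12 was higher (Socs3). In the ATF4 and amino acid list 1 of 23 was higher, the arginine transporter gene Slc7a1 (0.34), and in the chaperone list Xbp1 (0.27) was higher and the mitochondrial chaperonin gene Hspe1 (-0.27) lower, of 22. In the NF-kB, MAP kinase feedback, costimulatory, cytolytic, G2 and mitosis, glycolysis, oxidative phosphorylation and skeletal muscle lists 0 members passed in either direction over both times, and their medians lay between -0.043 and 0.103, beside 0.018 for all genes.

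Proliferation and glycolysis genes differed at 8 h more than over both times. Of 31 G1 and S phase genes 13 were higher at 8 h and 0 lower, beside 10.01% of all genes, and 1 was called at 2 h; the gene called over both times was Cdk6. Of 22 glycolysis and hypoxia genes 7 were higher at 8 h and 0 lower. After quantile normalization the counts at 8 h were 8 higher for the first list, and 6 higher and 1 lower for the second.

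Il2 was higher with the JAK2 inhibitor than with the JAK3 inhibitors, but its 2 h reading of 9.84 lay below the 10.004 of the JAK1 inhibitor and the 9.88 of the JAK1/2 inhibitor. Ccng2 at 8 h read lowest not with the JAK2 inhibitor (9.69) but with the JAK1 inhibitor (9.49).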
